A study of Bos taurus with 6 samples.

Results

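Small clusters of H3K27me3 with no H3K4me3 nearby were described in bovine embryonic stem cells. There were 152 of them among 7747 H3K27me3 chains, lone summits included, on chromosomes 1 to 29. H3K27me3, trimethylation of histone H3 at lysine 27, is written by Polycomb repressive complex PRC2 and marks silenced developmental genes in pluripotent cells. H3K4me3, trimethylation at lysine 4, marks active promoters. In pluripotent cells many promoters of developmental genes carry both marks and are called bivalent. PRC2 is known to be recruited to CpG-rich promoters and can spread from there, so H3K27me3 away from H3K4me3 lies outside the usual bivalent pattern.

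Both marks were profiled by ChIP-seq in line A and line B, independent lines of embryonic stem cells derived from blastocysts, at passage 12. The cells were untreated and carried no stated genetic change. They were grown on mouse feeder cells, which were removed with magnetic beads before chromatin was made, in a medium supplemented with FGF2 and IWR1, an inhibitor of WNT signalling. Each line gave 1 library per mark, so n = 2 per mark. The lines, called A and B below, are compared as single libraries. The autosomal lists held 17664 H3K27me3 summits in A and 13083 in B, and 19966 and 20961 H3K4me3 summits. A summit is the 1-base position of the highest signal of a peak. The lists hold no read counts, so sequencing depth is unknown, and a cluster absent from the shorter list of B cannot be told apart from one missed for want of depth.

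The clusters were chosen from the values themselves. H3K27me3 summits of both lines were pooled and joined into a chain wherever neighbours lay at most 5000 bases apart. A chain was kept if it held 2 to 4 summits in each line, had a median peak score below 50, and had no H3K4me3 summit of either line inside it or within 5 kb. The peak score is the authors' −log10 of a p or q value, and ranks peaks within a list. Sharing by both lines, small size, moderate score and lack of H3K4me3 are therefore properties of the choice, and all values of these kinds are given as descriptions without a test. With 1 library per line and mark, no test between lines was possible. Intervals around shares are 95% Wilson intervals for the counting error alone, and regions of 1 genome are not independent replicates.

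Most small clusters did have H3K4me3. Of 4474 chains with summits of both lines, 1010 held 2 to 4 summits in each line, and 837 of these scored below 50. In 606 of the 837 an H3K4me3 summit lay inside, in 79 one lay outside but within 5 kb, and the remaining 152 had none, which is 18.2% (Wilson interval 15.7% to 20.9%). Over all chains with summits of both lines, 24.5% had no H3K4me3 summit inside or within 5 kb. Among the 173 small clusters past the score limit the picture was the other way round, with 120 (69.4%) lacking H3K4me3, and among the 398 large regions, those of 5 or more summits in each line, 94 did (23.6%).

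The 3 clusters just inside the score limit lay on chromosome 8 at 93189233 to 93191092 (median score 49.3), on chromosome 8 at 91980128 to 91984407 (46.9) and on chromosome 13 at 42173374 to 42174632 (46.5), in UMD3.1 coordinates. Those just outside it were on chromosome 2 at 66607439 to 66609098 (54.7) and 136710032 to 136711929 (59.7), and on chromosome 14 at 50112 to 57550 (63.8). At the H3K4me3 limit, the nearest clusters kept were 5.75, 5.97 and 6.57 kb from an H3K4me3 summit. The last ones left out were 4.79, 4.16 and 3.58 kb away.

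The clusters were short and made of few summits. Together they held 408 H3K27me3 summits of A and 385 of B, 2.31% and 2.94% of the autosomal lists, and spanned 0.676 Mb. The most frequent make-up was 2 summits in each line, in 57 clusters, followed by 3 in A with 2 in B, in 24. Only 12 had 4 in each. The numbers were equal in 87 clusters, higher in A in 40 and higher in B in 25. From first to last summit the clusters spanned 531 to 12546 bases, with a median of 3884. Within a line the median span was 2957 bases in A and 3018 in B, and neighbouring summits lay a median of 1610 and 1900 bases apart.

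**Figure D1:**
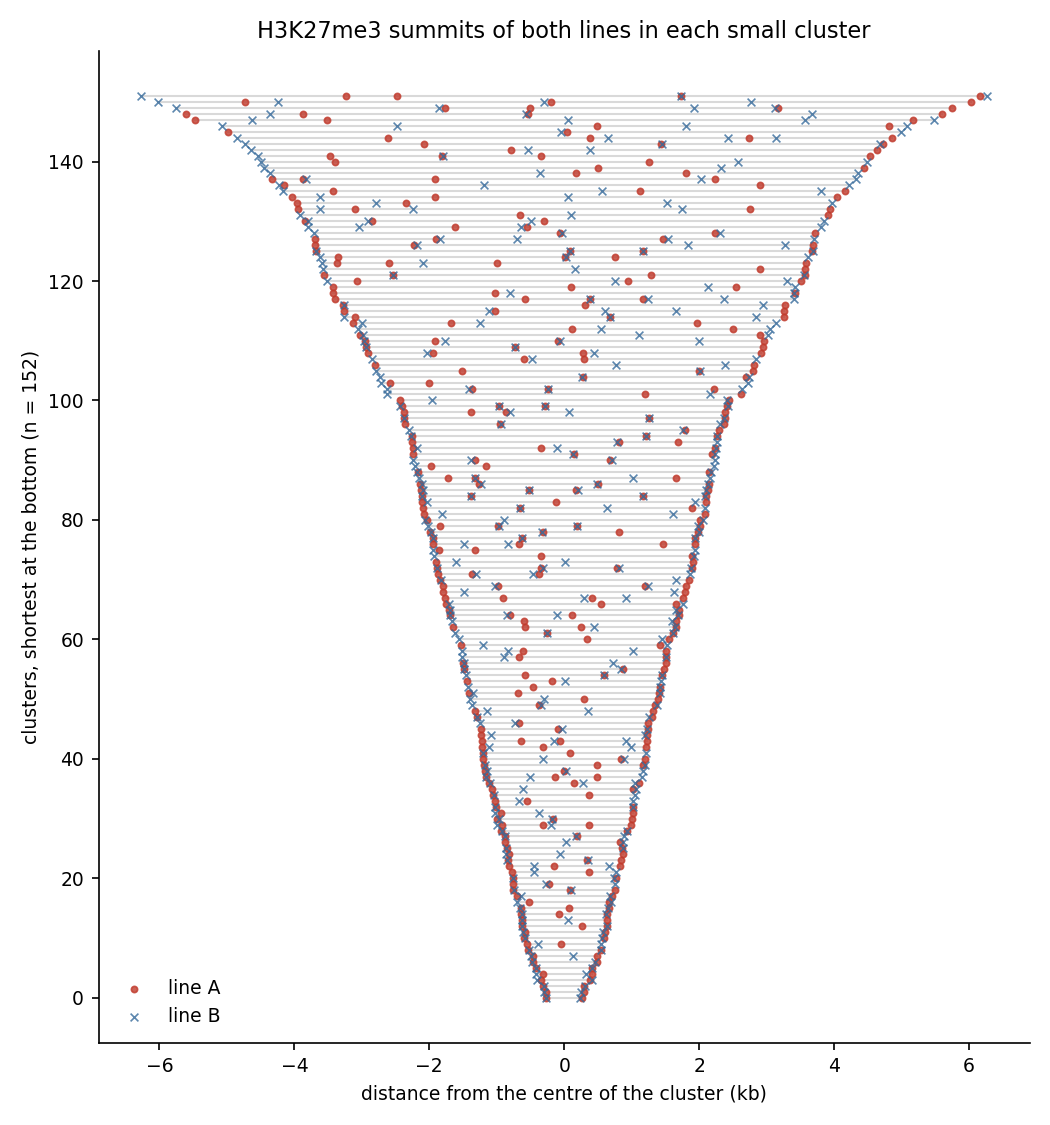
H3K27me3 summits of A (circles) and line B (crosses) in each of the 152 clusters, placed by distance from the cluster's centre in kb. Each row is a cluster, the shortest at the bottom, and the grey bar is its whole span, from 531 to 12546 bases.

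Peak scores were low in both lines. The median score of a cluster ranged from 2.41 to 148 in A, with a median of 8.33, and from 2.43 to 312 in B, with a median of 7.96. The 685 small clusters with H3K4me3, under the same score limit, had medians of 10.5 in A and 9.24 in B. By summit the median of the 152 clusters was 7.93 in A and 7.38 in B. Over all autosomal H3K27me3 summits, which had no score limit, it was 11.4 in A and 13.2 in B. In 95 clusters (62.5%) the pooled median was under 10, and in 120 (78.9%) under 20. The lines ranked the clusters alike, with a Spearman rho of 0.72 across the 152 clusters, which share their 2 libraries. This was near the 0.71 over all 4474 chains with summits of both lines. The score differed by at most 2 times between lines in 128 clusters, was more than 2 times higher in A in 15 and in B in 9. It was higher in A in 89 of 152. Because scores rank peaks within a list and depth is unknown, these counts describe the lists. They do not measure a difference in H3K27me3 between the lines.

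A low median could hide a single strong summit. At least 1 summit scored 50 or more in 26 clusters (17.1%), in 16 of the 685 small clusters with H3K4me3 (2.34%) and in 15.9% of all chains with summits of both lines. The extreme case lay on chromosome 14 at 346012 to 348482. Its summits scored 6.30, 13.0 and 812 in A and 14.7 and 609 in B, and the strong summits of the lines stood 4 bases apart, at 348482 and 348478. The medians were thus 13.0 and 312, the widest difference between lines, although each line held the same strong summit. On chromosome 10 at 60476307 to 60479325 the reverse was seen, with 266 and 29.6 in A and 3.36, 174 and 28.2 in B.

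**Figure D2:**
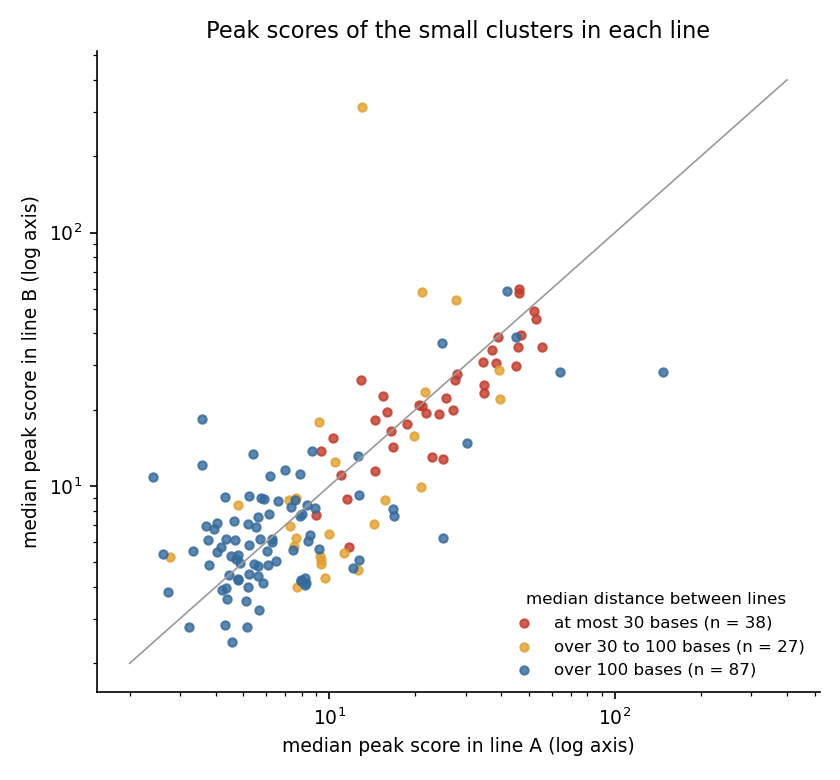
Median peak score of each cluster in A (x, log axis) against line B (y, log axis), coloured by the median distance between the summits of the lines; the line marks equal scores. The 38 clusters with a distance of at most 30 bases lie mostly at the higher scores, and the point far above the line is the cluster of chromosome 14 with 13.0 in A and 312 in B.

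The clusters were of mixed kind in how exactly the lines placed their summits. The distance from each summit to the nearest H3K27me3 summit of the other line was taken, and its median over the cluster. It ran from 1 to 3075 bases, with a median of 209. In 38 clusters (25%, Wilson interval 18.8% to 32.4%) it was at most 30 bases, in 27 it was over 30 and up to 100, and in 87 (57.2%) over 100. The limits of 30 and 100 bases had been set earlier on these same lists. Over all chains with summits of both lines, 20% had a median distance of at most 30 bases. The 25% rests on the choice in both lines: of the clusters chosen in 1 line alone, 6.40% were tight when B was left out and 15.4% when A was. A median distance of at most 30 bases was found in 19 of the 685 small low-scoring clusters with H3K4me3 (2.77%). It was found in 89 of the 120 high-scoring ones without H3K4me3 (74.2%). The 53 high-scoring ones with H3K4me3 were as close, with a median distance of 9 bases and an upper quartile of 20.5. By summit, 80.4% of those of A and 80.3% of those of B had the other line within 1 kb, against 80.8% and 88.8% over all chains with summits of both lines, so the share was near the background in A and below it in B. Within 100 bases the shares were 48.0% and 50.9%, against 45.4% and 53.2%.

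The tightly matched and the loosely matched clusters differed in score and length. The 38 tight clusters had a median score of 24.6 in A and 21.6 in B, and the 87 loose ones 5.67 and 6.11. The tight ones spanned a median of 2493 bases and the loose ones 4603. Scores of the lines ranked the tight clusters alike (Spearman rho 0.87, n = 38) and the loose ones less so (0.38, n = 87). Across all 152 clusters the distance fell as the score rose (Spearman rho -0.68), while across the 685 small clusters with H3K4me3 there was little such relation (-0.08). The relation was also present over the 4474 chains with summits of both lines (-0.40) and over the 398 large regions (-0.75). It was thus not particular to the clusters without H3K4me3.

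Between scores of 10 and 50, tight clusters made up most of those without H3K4me3 and few of those with it. At lower scores they were few in both classes. With a median score under 10, 2 of 95 clusters without H3K4me3 were tight (2.11%, Wilson interval 0.58% to 7.35%) and 9 of 395 with it (2.28%). From 10 to below 20 the counts were 14 of 25 (56.0%, interval 37.1% to 73.3%) and 8 of 245 (3.27%, interval 1.66% to 6.31%). From 20 to below 50 they were 22 of 32 (68.8%, interval 51.4% to 82.0%) and 2 of 45 (4.44%, interval 1.23% to 14.8%). Over all chains with summits of both lines the shares of the 3 bands were 8.14%, 11.9% and 22.9%. At scores of 50 or more, small clusters were close between lines with or without H3K4me3. The 53 with it had a median distance of 9 bases (upper quartile 20.5), and the 120 without it 9.5 (upper quartile 30.6). Because the classes were split by these same lists, the shares are a description and no test was made.

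The 3 most tightly matched clusters show how close the positions could be. On chromosome 8 at 75854037 to 75858579 line A had summits at 75854045, 75857523 and 75858579, and line B at 75854037, 75857524 and 75858578. Their scores were 24.5, 44.9 and 71.3 in A and 10.4, 37.2 and 29.8 in B, so the highest summit was not the same one. On chromosome 23 at 52348535 to 52352427 the summits lay 7, 3 and 0 bases apart, with scores of 11.4, 29.8 and 20.6 in A and 13.3, 28.2 and 20.8 in B. The cluster of chromosome 8 at 93189233 to 93191092 had 31.9 and 72.6 in A and 31.3 and 66.7 in B. In these last clusters each line gave the same order of scores.

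The 3 most loosely matched clusters were weak. On chromosome 5 at 159473 to 166618 line B had summits at 159473 and 163210 with scores of 2.48 and 7.27, and line A at 165951 and 166618 with 3.1 and 4.49, so the lines did not overlap in span. On chromosome 18 at 52893795 to 52903775 the scores were 3.98 and 8.98 in A and 3.80 and 6.34 in B. On chromosome 25 at 21051261 to 21059975 they were 7.95 and 3.33 in A and 8.87, 4.71 and 7.56 in B. The spans of the lines overlapped in 147 of the 152 clusters.

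The strongest summit was often not at the same place in both lines. The strongest summits of the lines lay within 1 kb of each other in 91 of 152 clusters (59.9%), against 527 of 685 small clusters with H3K4me3 (76.9%). Over all chains with summits of both lines 82.8% did, with chains of every size counted. By tightness, the count was 28 of 38 tight clusters and 46 of 87 loose ones.

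Of the 12 clusters with 4 summits in each line, the 10 longest ranged from tight to loose. In 6 of them the median distance was at most 30 bases. On chromosome 21 at 18725829 to 18730034 the scores ran 20.7, 167, 30.6 and 24.5 in A and 23.4, 143, 29 and 22 in B, with the second summit highest in both, at a median distance of 4 bases. On chromosome 14 at 77185 to 84553 they ran 47.5, 64.0, 9.63 and 116 in A and 27.9, 42.6, 13.3 and 98.8 in B. On chromosome 20 at 141399 to 146264 and at 14786761 to 14790796 the median distances were 13 and 25.5 bases. On chromosome 8 at 91980128 to 91984407 and chromosome 15 at 22947031 to 22951285 they were 25 and 27.5 bases.

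The other 4 were weaker and looser. On chromosome 18 at 63241682 to 63247618 the scores were 3.46, 9.88, 6.85 and 7.61 in A and 9.38, 8.82, 3.16 and 8.87 in B, at a median distance of 86 bases. On chromosome 1 at 61714992 to 61721799 the distance was 516 bases, and on chromosome 14 at 2684216 to 2693920 it was 355. The cluster of chromosome 6 at 5688800 to 5700310 spanned 11511 bases with scores of 3.08 to 7.06 in A and 3.47 to 5.81 in B. It was 1 of the 3 longest clusters, with those at 71538168 to 71550713 on chromosome 21 (12546 bases) and at 63185485 to 63197533 on chromosome 18 (12049 bases). The 3 shortest were tight or nearly so: 531 bases on chromosome 24 from 256752, 599 on chromosome 20 from 15765330 and 617 on chromosome 21 from 1353078, at 16, 39 and 11 bases between lines.

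The clusters sat in neighbourhoods rich in other H3K27me3. The next H3K27me3 chain was a median of 10.7 kb away, against 32.2 kb for the small clusters with H3K4me3, 103 kb for the high-scoring ones without it and 46.3 kb for all chains with summits of both lines. In 70 of 152 clusters (46.1%) it lay within 10 kb, just past the chaining limit, and among the small clusters with H3K4me3 in 154 of 685 (22.5%), against 20.8% of all chains with summits of both lines. The count depends on the chaining limit: with a limit of 3000 bases 71.4% of the clusters had a chain within 10 kb, and with 10000 bases none could. The nearest chain was itself small in 29, large in 21 and a lone summit in 41. Within 50 kb either side a cluster had a median of 4.5 further summits in A and 3 in B, and 31 clusters had none in either line. A large region lay within 100 kb of 49 clusters (32.2%), against 77 of 685 (11.2%) of those with H3K4me3 and 9.84% of all chains with summits of both lines that were not large themselves. Chromosome starts weighed in this share. The 28 clusters in the first Mb of a chromosome were a median of 35.9 kb from a large region. For the other 124 the median was 700 kb and the lower quartile 106 kb, against 1760 and 437 kb for the 685 with H3K4me3.

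One such neighbour was on chromosome 19. The cluster at 38530851 to 38537885 lay 6.57 kb from the large region at 38544455 to 38605570, which held 19 summits in each line. Its summits scored 53.7, 45.2 and 21.8 in A and 38.6, 38.7 and 14.1 in B, and H3K4me3 was 12.1 kb away. It was the sole cluster of this kind on chromosome 19.

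Some clusters stood far from any other H3K27me3. On chromosome 10 at 41943381 to 41945782 the next chain was 1120 kb away, and the scores were 23.7, 3.59 and 3.03 in A and 19.8 and 17.1 in B. On chromosome 1 at 47066214 to 47069741 it was 701 kb away, with scores of 3.98, 8.40, 9.92 and 7.45 in A and 11.3 and 10.9 in B. The tight cluster of chromosome 21 at 18725829 was 661 kb from the next.

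**Figure D3:**
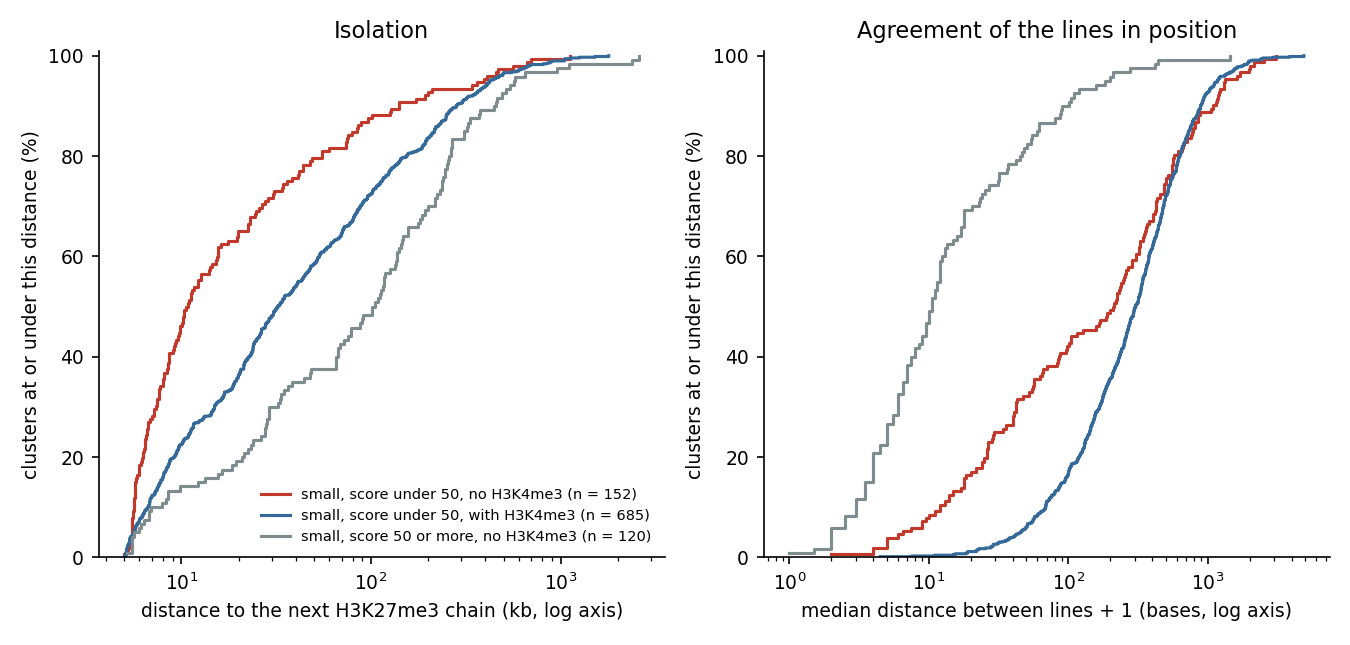
Cumulative share of clusters by distance to the next H3K27me3 chain (left, kb, log axis) and by median distance between the summits of the lines plus 1 (right, bases, log axis). The 152 clusters (red) lie nearest to other H3K27me3, at a median of 10.7 kb. Over most of its course their curve on the right runs between those of the 685 small clusters with H3K4me3 (blue) and the 120 high-scoring ones without it (grey). It crosses the blue curve at the loose end, where 90% of the red clusters lie at or under 1089 bases and 90% of the blue ones at or under 889.

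Distance to H3K4me3 was part of the choice, which required more than 5 kb, so its values only describe the clusters. The nearest H3K4me3 summit of either line lay a median of 61.7 kb from a cluster, with quartiles of 22.9 and 162 kb. In 14 clusters it was within 10 kb, in 67 (44.1%) within 50 kb, in 56 (36.8%) beyond 100 kb and in 12 beyond 500 kb. The farthest were on chromosome 12 at 8549000 to 8551788, 1947 kb away, on chromosome 18 at 50787 to 51892, 974 kb away, and on chromosome 21 at 18725829, 904 kb away. The cluster of chromosome 12 was weak, with scores of 4.71 and 4.55 in A and 7.86 and 6.73 in B. The high-scoring small clusters without H3K4me3, chosen with the same limit, had a median distance of 74.1 kb.

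Chromosome 14 held most clusters, 19 of 152 (12.5%). Per Mb up to the last summit of the chromosome, it had 0.224, followed by chromosome 18 with 0.212 (14 clusters) and chromosome 25 with 0.163 (7 clusters), against a median of 0.0532 over the 29 chromosomes. Chromosomes 22 and 29 had none, and chromosome 16 had 1, at 0.0122 per Mb. The small clusters with H3K4me3 were spread in another order, with 0.742 per Mb on chromosome 18, 0.703 on 19 and 0.699 on 25, but 0.224 on chromosome 14. Chromosome 22 held 20 of them and chromosome 29 held 24.

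A large share lay at the very start of the chromosomes as the assembly numbers them. In 28 of 152 clusters (18.4%, Wilson interval 13.1% to 25.3%) the first summit lay in the first Mb. Of all chains with summits of both lines, 3.33% did. Of the small clusters with H3K4me3, 5 of 685 did (0.73%), and of the high-scoring ones without it 12 of 120 (10.0%). The first Mb of the 29 chromosomes makes up 1.15% of their length up to the last summit. At the other end, 11 clusters (7.24%) ended in the last Mb before the last summit of the chromosome. Of all chains with summits of both lines 4.78% did. The true chromosome ends were not used. The 28 clusters were on 12 chromosomes, but 12 of them were on chromosome 14, and without that chromosome the share was 12.0%. Among clusters chosen in A alone, with B left out, it was 9.60%, and among those chosen in B alone 14.2%.

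**Figure D4:**
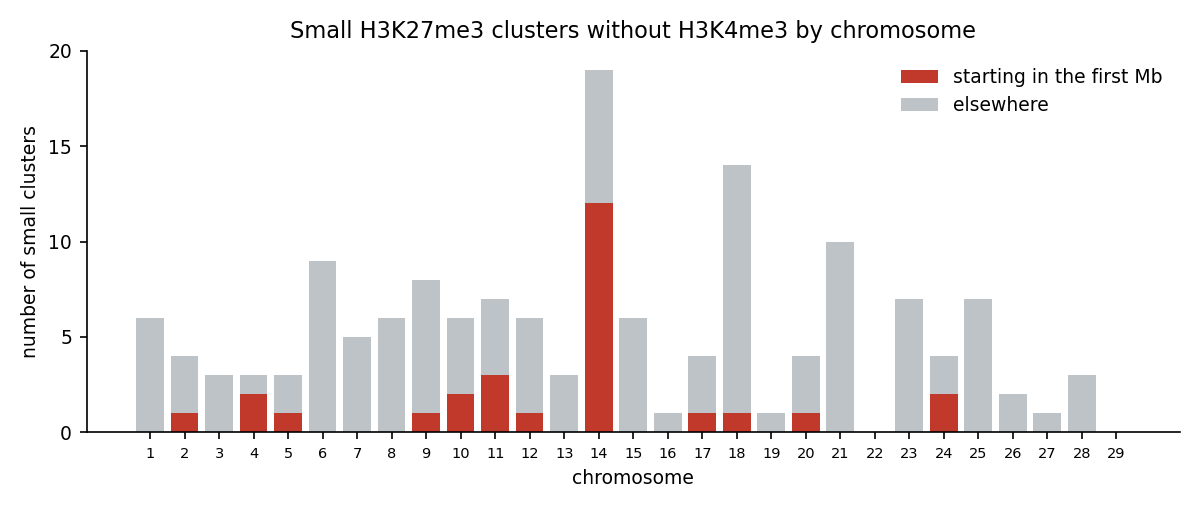
Number of small H3K27me3 clusters without H3K4me3 on each chromosome, with those that start in the first Mb in red. Chromosome 14 has 19, of which 12 lie in the first Mb, and chromosomes 22 and 29 have none.

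In all, 4 of these clusters started within 5 kb of base 1. On chromosome 12 the summits of A at 158, 733, 1319 and 2601 scored 7.26, 10.9, 3.03 and 3.52, and those of B at 1224 and 2297 scored 21.7 and 5.02. On chromosome 24 from 744 to 4134 the scores were 47.0, 5.57, 10.8 and 7.64 in A and 55.3, 4.23, 15.0 and 21.0 in B. On chromosome 2 from 523 to 3016 they were 78.6 and 4.89 in A and 3.38 and 114 in B. On chromosome 11 from 1056 to 4465 they were 18.9 and 32.3 in A and 23.8 and 20.9 in B, with further clusters at 51845 to 53890 and 69450 to 72771.

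Clusters of the first Mb held both strong and weak members. Their median scores were 11.7 in A and 16.0 in B, against 7.96 and 7.60 for the other 124. A median distance of at most 30 bases was found in 12 of 28 (42.9%) and in 26 of the other 124 (21.0%). Among those 124, the shares of tight clusters by score band were 2.35%, 56.3% and 65.2%, so the relation of tightness to score was about as large without the chromosome starts.

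Joining clusters at most 500 kb apart gave 10 runs of 3 or more, which held 48 of the 152 (31.6%), 10 pairs and 84 clusters on their own. Joined in the same way among themselves, 27.4% of the 685 small clusters with H3K4me3, 9 of the 120 high-scoring ones without it and 73.1% of the 4474 chains with summits of both lines lay in such runs. Classes of unequal number cannot be ranked by such shares, so the runs are described one by one and not as a trait of the class. The largest run, of 13 clusters, covered chromosome 14 from 77185 to 1351880. That stretch of 1275 kb held 272 H3K27me3 summits in A and 208 in B, 14 large regions, and 4 and 2 H3K4me3 summits. Median scores of its clusters ran from 2.76 to 55.8 in A and from 5.24 to 312 in B, and 6 of the 13 were tight.

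The second run, of 8 clusters, covered chromosome 6 from 5358004 to 6610040, with 76 H3K27me3 summits in A and 51 in B, beside 5 and 7 of H3K4me3. Its clusters scored 4.23 to 25.1 in A and 3.89 to 20.7 in B, and 3 were tight. The run of 5 on chromosome 18, from 63185485 to 63678200, was weaker, at 3.32 to 8.32 and 4.16 to 8.99, with none tight and 13 H3K4me3 summits of B in its span. On chromosome 23 the run from 29704073 to 29748759 held 4 loose clusters in 44.7 kb, all scoring 5.75 to 8.99, with no H3K4me3 summit in its span. A second run of that chromosome, of 3 clusters from 52338340 to 52466229, scored 20.6 to 30.4 in A and 14.8 to 20.8 in B, with 2 tight. The 3 clusters on chromosome 12 from 78643057 to 78663986 followed each other within 20.9 kb, at scores of 4.45 to 9.98 and 4.47 to 6.50.

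To look at these clusters in data that did not choose them, the rule was applied to the lists of 1 line alone and the places were looked up in the other line. Line A alone gave 594 small low-scoring clusters without H3K4me3. Line B had an H3K27me3 summit inside or within 1 kb of 380 of them (64.0%, Wilson interval 60.0% to 67.7%), 2 to 4 summits at 178, a single one at 195 and none at 214. Line B alone gave 318, and line A had a summit at 255 (80.2%, interval 75.5% to 84.2%), 2 to 4 at 175, 1 at 69 and none at 63. The lookup was more often met for clusters with H3K4me3, at 1345 of 1597 chosen in A (84.2%) and 1078 of 1135 chosen in B (95.0%). In the pooled lists, with chains of every size counted, 4474 of 7747 chains held summits of both lines, 2644 of A alone and 629 of B alone. The same lookup was not made for all chains of 1 line, so these shares do not set the clusters apart from chains at large.

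Clusters with no summit in the other line had the lower scores. Those of A had a median score of 7.96 where line B had a summit and 4.80 where it had none, and those of B 7.29 and 4.55. By tertile of their own score, the share of A's clusters met in B was 42.4%, 56.1% and 93.4%, and that of B's in A 59.4%, 85.8% and 95.3%. In the highest tertile it came close to the 97.7% and 97.6% of clusters with H3K4me3. In the lower tertiles it stayed under theirs, which was 67.7% and 87.2% for line A and 91.2% and 96.1% for line B, at median scores of 5.19 and 8.81, and 5.65 and 8.95. The clusters without H3K4me3 were weaker in the same tertiles, at 4.11 and 6.07 in A and 4.25 and 6.42 in B, and the part of score in this difference was not tested.

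**Figure D5:**
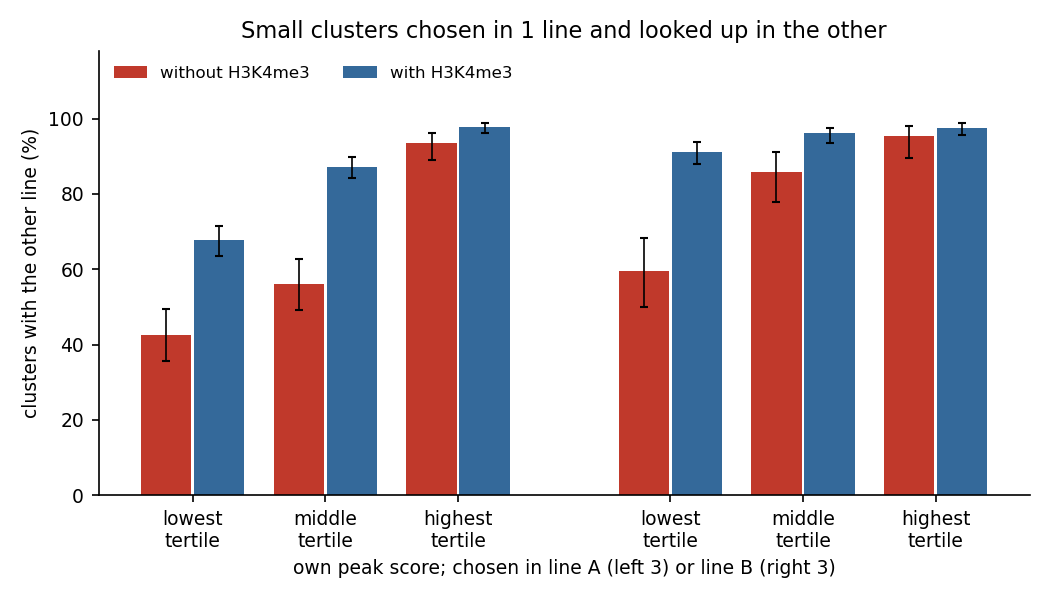
Percent of small clusters chosen in 1 line that had an H3K27me3 summit of the other line inside or within 1 kb (y), by tertile of their own peak score (x), without H3K4me3 (red) and with it (blue). Bars are shares and whiskers 95% Wilson intervals; without H3K4me3 the share rises from 42.4% to 93.4% for clusters chosen in A and from 59.4% to 95.3% for those chosen in B.

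Most clusters chosen without H3K4me3 in a line had none nearby in the other line either. Of the 594 clusters chosen without H3K4me3 of A, 95 had an H3K4me3 summit of B inside or within 5 kb (16.0%). Of the 318 chosen in B 9 had one of A (2.83%). Of the clusters chosen with H3K4me3, 1575 of 1597 and 1072 of 1135 had it in the other line too (98.6% and 94.4%). H3K4me3 of the other line was thus more frequent at clusters chosen with the mark than at those chosen without it. The share was not taken for all chains of a line or for the genome. These counts therefore do not show whether clusters chosen without H3K4me3 lack it more often than other places. Why the share was 16.0% for A and 2.83% for B was not tested.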

How the data were processed

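Peaks of H3K27me3 and H3K4me3 of lines A and B were used, 1 deposited list per library. The submitters' processing notes name BWA, MACS2 and the UMD3.1 assembly. Neither versions nor filters nor the use of the inputs as control are given in the sources used here. Per the files, the peak names mention paired-end input. The deposited score, taken to be −log10 of the p or q value from MACS2, started just above 2 in every list. Deposited positions (unit "other") are 1 base long and are given here counted from 1.

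Summits on chromosomes 1 to 29 were chained with gaps of at most 5000 bases, and clusters were chosen by the rule given above. Members, classes and limits were chosen with earlier results of these data known. Named regions were those with most summits, the longest and shortest, the highest scores and those just past the limit, the closest and farthest between lines, and the farthest from other H3K27me3 and from H3K4me3. Clusters of the first Mb, runs, clusters with a single strong summit and the cluster of chromosome 19 were added after their values were seen. Densities used the span up to the last summit of any list. The code of the rule was checked on simulated lists, where it found the planted clusters alone. The planted groups stood far apart and clear of the score and H3K4me3 limits, so crowded stretches were not tried. Genes, sequences and the inputs were not analysed here, because no sequence or annotation of UMD3.1 was used. Scripts ran in Python 3.11.15 with pandas 2.3.3 and numpy 2.4.6, intervals came from scipy 1.17.1, and plots from matplotlib 3.10.9.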

Additional observations from a re-analysis of the deposited data

Results flagged for a closer look

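Signal outside the autosomes drew attention because the same rule found clusters there too, judged without a control list. The X gave 254 small low-scoring H3K27me3 clusters without H3K4me3, of 366 small low-scoring ones (69.4%), which is 1.71 per Mb against 0.0605 on chromosomes 1 to 29. The X alone held 3982 H3K27me3 chains of any kind, against 7747 on chromosomes 1 to 29 together. It was thus denser in chains of every kind, and the densities of the clusters are not corrected for this. The clusters of the X scored a median of 5.43 (A) and 5.50 (B), and 12 (4.72%) had a median distance between lines of at most 30 bases. Unplaced sequences of the assembly gave 190 of 197 (96.4%), with median scores of 19.8 and 22.9, a median span of 1918 bases and 84 tight clusters (44.2%). None of these entered the comparisons above.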

How the results depend on the processing

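Of 89 alternatives, 44 stayed within 1.5 times of a count, 1 SD between lines or the Wilson interval, and 45 moved further. The values are counts, shares and medians without a direction, so a reversal was not defined. Leaving out chromosome 14 or the first Mb was chosen after seeing the data. With 1 line left out, its lists of both marks were dropped, so its H3K27me3 was not required and its H3K4me3 excluded nothing. The clusters then numbered 318 to 594, against 152. By H3K4me3 of the remaining line alone, 21.9% to 27.1% of small low-scoring clusters lacked it, against 18.2% by both lines. Then the median score was 6.07 to 6.42, against 8.15 as the mean of the lines, 47.8% to 64.2% of summits had the other line within 1 kb, against 80.3%, 9.60% to 14.2% of clusters lay in the first Mb, against 18.4%, and 6.40% to 15.4% were tight, against 25%. Chain gaps of 3000 and 10000 bases gave shares within 1 kb of 87.6% and 80.2%, with a median score of 8.50 for the first and 14.9% without H3K4me3 for the second. An H3K4me3 distance of 1000 bases gave 79.6% within 1 kb. Score limits of 25 and 100 gave median scores of 7.26 and 9.74, shares within 1 kb of 76.8% and 83.0%, and 17.1% and 33.1% tight clusters. Summits scoring at least 3 gave 8.41 and 81.1%. Without chromosome 14 the values were 7.84, 80.0% and 12.0% in the first Mb. Without the first Mb they were 7.78 and 80.2%, with 15.4% lacking H3K4me3. Within 500 bases 70.9% of summits were shared and within 2000 bases 90.8%. The lines differed so little in these shares that nearly any move passed 1 SD. No paired analysis was possible because the results come from no test. Depth is unknown, which limits what can be said of clusters found in 1 line.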
